A study of Homo sapiens with 24 samples.

Results

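The transcripts described here encode the Golgi glycosyltransferases that build mucin-type O-glycans and the chains that extend, sialylate or fucosylate them, together with the mucins that carry such glycans. Members were chosen by symbol alone, as every gene of the 3 count tables in the GALNT, C1GALT1, GCNT, B3GNT, B4GALT, B3GALT, ST3GAL, ST6GAL, ST6GALNAC, ST8SIA and FUT families and every numbered MUC gene. The rule found 57 of the 14413 genes listed in any table, 51 glycosyltransferases (the chaperone C1GALT1C1 counted among them) and 6 mucins. Each table listed 54 of them and 51 were in all 3. GALNT4, GALNT5 and MUC6 were listed in the Tet-PTF1a table alone, and B3GNT3, GALNT9 and MUC5AC in the Tet-One and Tet-MIST1 tables. A further 37 annotated genes with matching symbols had no row in these tables and were not analysed here.

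RNA was sequenced from Panc-1 cells, an established human pancreatic ductal adenocarcinoma line, that had been selected in puromycin after transfer of a doxycycline (Dox)-inducible plasmid. Tet-One cells carried the empty plasmid, Tet-MIST1 cells the rat MIST1 open reading frame and Tet-PTF1a cells the mouse PTF1a open reading frame, both with a myc tag, and individual clones had been screened for induction. Every line gave 4 libraries of untreated cells (Control) and 4 libraries of cells kept for 72 h in 1 µg/ml Dox, at passage 32 for Tet-One and Tet-PTF1a and passage 33 for Tet-MIST1. All 6 groups shared the Panc-1 background, high-glucose medium and tetracycline-depleted serum, so that Tet-One with Dox is the control for Dox itself, and a difference between lines cannot be told apart from a difference between clones or passages.

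Mucin-type O-glycosylation starts in the Golgi when a GALNT enzyme links N-acetylgalactosamine to serine or threonine of a protein. C1GALT1, which needs the chaperone C1GALT1C1 to fold, or B3GNT6 then builds a core, GCNT enzymes add branches, B3GNT and B4GALT enzymes lengthen the chains with alternating N-acetylglucosamine and galactose, and sialyltransferases and fucosyltransferases cap them. Several of these enzymes also act on N-glycans, proteoglycans or glycolipids, and ductal pancreatic cancers are known for altered mucins and truncated or sialylated glycans.

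Total counts per library ran from 17210989 to 43018494 in Tet-PTF1a, 33402628 to 42510942 in Tet-MIST1 and 35863825 to 41648040 in Tet-One. The biological coefficient of variation between replicates was 2.80% in Tet-PTF1a, 6.58% in Tet-MIST1 and 14.4% in Tet-One. Each line was tested against the spread of its own libraries, so that calls and FDRs of different lines do not compare sizes of change. Among the 24 libraries, Tet-One Dox replicate 1 stood apart, with an SD of 0.591 of its log2 differences from the other Dox libraries of its line against 0.117 to 0.251 for the other 23 libraries. In Tet-PTF1a, reads assigned to human PTF1A numbered 2, 1, 0 and 2 in the Control and 95, 148, 53 and 168 in the Dox libraries. The transgene is the mouse one, and whether these reads came from it or from the human gene is not known. BHLHA15, the gene of MIST1, had no row in the Tet-MIST1 or Tet-One table. Of the ductal or epithelial markers KRT7, KRT8, KRT18, KRT19, EPCAM, SOX9 and CDH1, all 7 had a row in every table and summed to 4965 to 5857 CPM (counts scaled to the size of the library) in Tet-One Control, 1778 to 1912 in Tet-MIST1 Control and 3462 to 3633 in Tet-PTF1a Control. In Tet-PTF1a Dox the same sum was 1755 to 1810 CPM, with KRT19 lower (log2 fold change, Dox over Control, -1.07 ± 0.051 SE, FDR = 2.80e-07, the form of the fold changes in the parentheses that follow) and KRT7 higher (1.64 ± 0.14 SE, FDR = 3.69e-14). All 7 were called in this line (FDR under 0.05), 3 higher and 4 lower, against 48.2% of all genes. Of 8 acinar markers, CEL had a row in all tables and PRSS1 in the Tet-PTF1a table, where PRSS1 rose (4.59 ± 0.23 SE, FDR = 1.09e-22). PRSS1 passed the filter through its Dox libraries alone and so could be called higher alone, and CEL was not called in any line. Their sum was 0.546 to 0.849 CPM in Tet-PTF1a Control and 3.27 to 4.32 in Tet-PTF1a Dox. The fibroblast markers with a row, COL1A1 and PDGFRB, summed to 149 to 157 CPM in Tet-PTF1a Control and 63.9 to 66.3 CPM in Tet-PTF1a Dox, the defining markers COL1A2, DCN, LUM and PDGFRA had no row, and no endothelial marker had one. The leukocyte marker CD14 was at most 1.37 CPM in any library and PTPRC had no row. In bulk RNA, fewer cells of a kind and less RNA per cell cannot be told apart, and the part of these marker changes in the results below was not tested.

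PTF1a induction went with large changes in a few of these genes. Of the members, 3 rose by a log2 fold change over 1, namely B3GNT5, the enzyme that starts the lacto-series glycolipids (from 65.3 ± 2.36 to 206 ± 1.58 CPM, mean ± SD, n = 4), B4GALT5, a lactosylceramide synthase (from 115 ± 2.65 to 233 ± 6.47 CPM), and GCNT1, which branches core 1 into core 2 (from 1.37 ± 0.160 to 2.99 ± 0.205 CPM). GALNT18, of the GalNAc-transferase family, B3GNT7, a chain-extending enzyme, and B3GNT6, the core 3 synthase, fell by more than 1. B3GNT6 passed the filter for testing through its Control libraries alone and so could be called lower alone. MIST1 induction went with smaller changes, led by ST3GAL1, which caps core 1 with sialic acid (from 8.26 ± 0.782 to 4.86 ± 0.740 CPM), and FUT4, an enzyme of Lewis x synthesis (from 15.2 ± 0.650 to 21.6 ± 1.37 CPM). No member was called with Dox in Tet-One. The falls of B3GNT6 in Tet-PTF1a and of ST3GAL1 in Tet-MIST1 were not shown to differ from the response of Tet-One. In Tet-One, Dox replicate 1, the library that stood apart, was the lowest Dox library for both genes.

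In Tet-PTF1a all 54 listed members were tested and 36 were called (19 higher, 17 lower, FDR under 0.05), against 48.2% of all genes tested (23.8% higher, 24.4% lower). The median absolute log2 change was 0.246 over the members and 0.122 over all genes. B3GNT6 was tested on the strength of its Control libraries alone, since none of its Dox libraries passed 0.5 CPM, so that it could enter the count as lower alone. In Tet-MIST1, 50 members were tested and 10 were called (4 higher, 6 lower), against 20.6% of all genes (11.9% higher, 8.77% lower). The median absolute change was 0.122 over the members and 0.119 over all genes. In Tet-One, 0 of 48 members were called by edgeR's quasi-likelihood test, 0 had an unadjusted p under 0.05 and DESeq2 called 0, against 0% of all genes called and 2.99% with an unadjusted p under 0.05. The 4 Dox libraries lay wholly above or wholly below the 4 Control libraries for 31 of the 54 listed members in Tet-PTF1a, all of them called, against 42.3% of all listed genes. The same held for 13 of 54 in Tet-MIST1, of which 8 were called, against 26.5% of all listed genes, and for B3GNT7 alone in Tet-One, against 2.46%.

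The Tet-MIST1 count moved with single libraries, as did the share of all genes called. It was 5 without Control replicate 1, Control replicate 3 or Dox replicate 4, against 10.7%, 10.6% and 14.8% of all genes. It was 6 without Control replicate 2 or Dox replicate 3, against 13.0% and 15.3%. C1GALT1C1, FUT4, MUC3A and ST3GAL1 were the 4 members called under every alternative. In Tet-PTF1a, 30 of the 36 kept the call in every alternative that tested them. B3GNT9, C1GALT1, FUT11, GALNT11, GALNT16 and ST3GAL2 lost the call in at least 1. B3GNT6, among the 30, was tested in 13 alternatives against 18 for the others, since it passed the filter through its Control libraries alone.

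**Figure D1:**
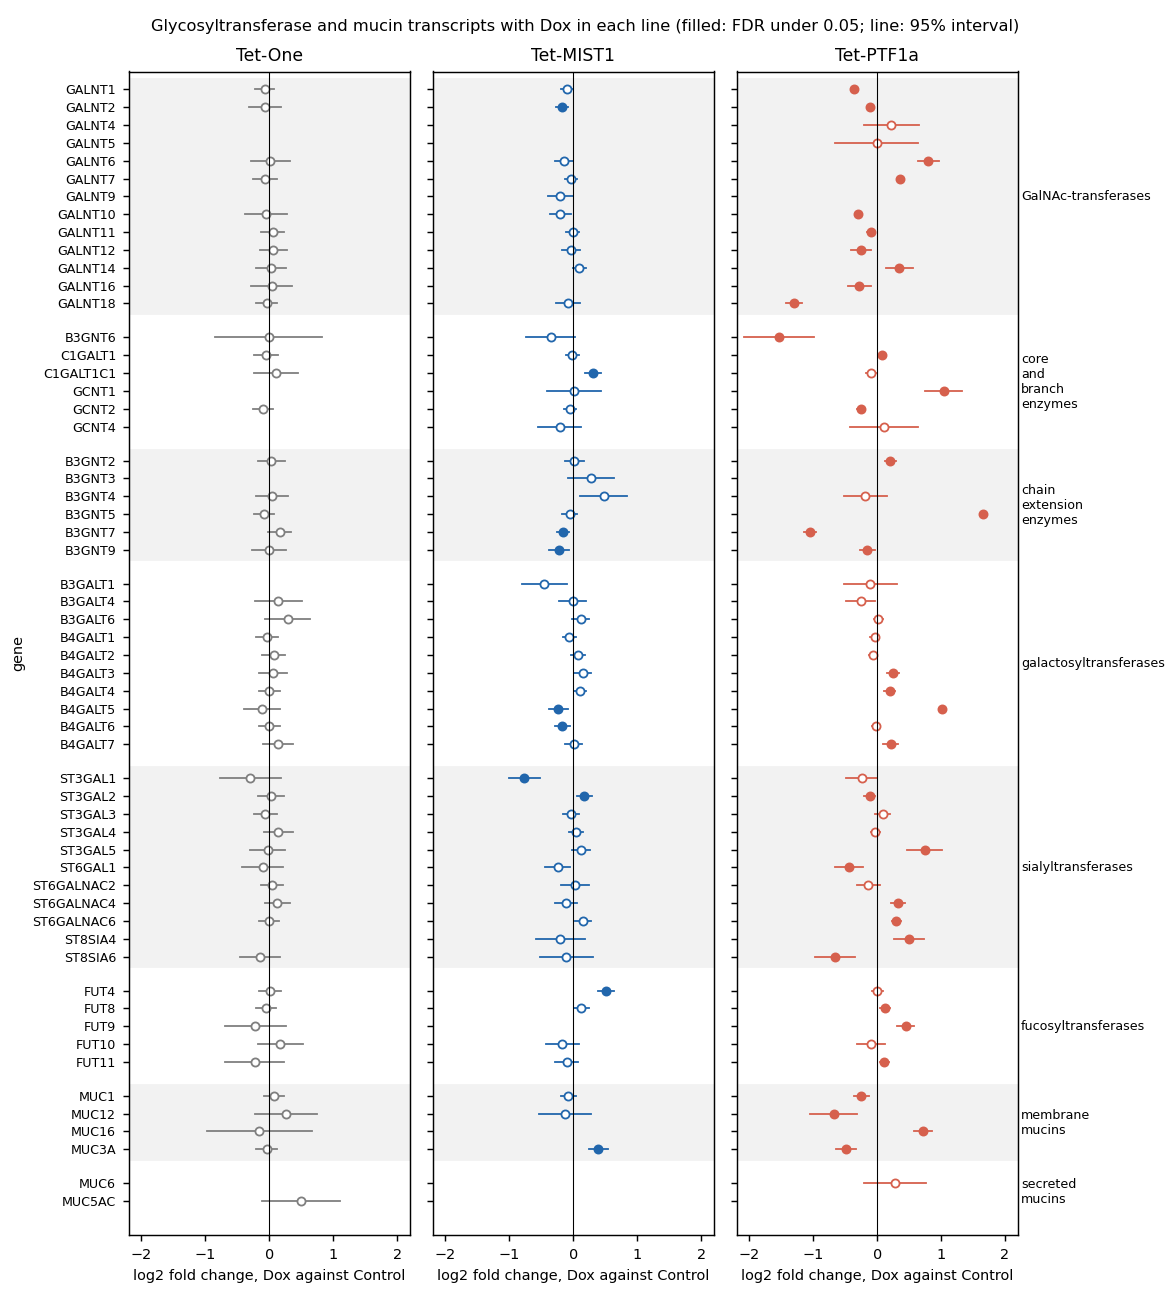
Log2 fold change with Dox (x axis) for each gene (y axis, grouped by class) in Tet-One, Tet-MIST1 and Tet-PTF1a, as points with 95% intervals, filled where the FDR was under 0.05 and absent where the gene was not tested. Tet-One has no filled point, Tet-MIST1 has 10, from -0.76 for ST3GAL1 to 0.51 for FUT4, and Tet-PTF1a has 36, from -1.53 for B3GNT6 to 1.66 for B3GNT5.

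MIST1 and PTF1a are basic helix-loop-helix factors that bind the E box, CANNTG, and PTF1a in a complex with RBPJ binds an E box paired with TGGGAAA. The promoters of the leading genes are shown to give the E boxes in view of the RefSeq start, for B3GNT5, B4GALT5 and GCNT1 as the 3 largest rises in Tet-PTF1a, for B3GNT7 as a fall there and for FUT4 as the largest rise in Tet-MIST1. Each covers the 250 bases upstream and 50 bases downstream of the start in RefSeq, GRCh38.p14, 5′ to 3′ on the gene's strand, with every CANNTG on either strand in capitals. They lie at chr3:183253003-183253302, plus strand (B3GNT5), chr20:49713829-49714128, minus strand (B4GALT5), chr9:76393619-76393918, plus strand (GCNT1), chr2:231395460-231395759, plus strand (B3GNT7) and chr11:94543671-94543970, plus strand (FUT4). In the hg19 coordinates of the count tables the genes themselves span chr3:182971032-182991179, chr20:48249483-48330421, chr9:79056582-79122332, chr2:232260335-232265875 and chr11:94277017-94283064 in the same order. The builds were not converted to each other, and whether each window lies at the start of the listed gene was not checked.
B3GNT5: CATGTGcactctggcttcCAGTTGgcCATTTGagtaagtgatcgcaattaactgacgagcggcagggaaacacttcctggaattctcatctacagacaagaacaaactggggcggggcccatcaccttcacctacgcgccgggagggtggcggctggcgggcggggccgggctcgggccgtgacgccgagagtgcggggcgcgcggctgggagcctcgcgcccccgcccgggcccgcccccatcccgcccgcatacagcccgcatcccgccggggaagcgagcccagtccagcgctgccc
B4GALT5: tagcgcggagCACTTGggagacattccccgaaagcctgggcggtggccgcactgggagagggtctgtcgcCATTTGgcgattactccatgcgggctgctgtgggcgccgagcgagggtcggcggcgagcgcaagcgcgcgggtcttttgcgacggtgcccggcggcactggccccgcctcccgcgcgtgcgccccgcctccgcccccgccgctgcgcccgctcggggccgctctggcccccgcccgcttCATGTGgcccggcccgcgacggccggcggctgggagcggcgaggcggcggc
GCNT1: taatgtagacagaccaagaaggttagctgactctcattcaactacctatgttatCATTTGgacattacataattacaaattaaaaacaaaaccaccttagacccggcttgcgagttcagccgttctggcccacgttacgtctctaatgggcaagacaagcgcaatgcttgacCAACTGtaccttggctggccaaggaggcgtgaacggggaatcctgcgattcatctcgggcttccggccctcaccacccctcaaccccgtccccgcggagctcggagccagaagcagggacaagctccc
B3GNT7: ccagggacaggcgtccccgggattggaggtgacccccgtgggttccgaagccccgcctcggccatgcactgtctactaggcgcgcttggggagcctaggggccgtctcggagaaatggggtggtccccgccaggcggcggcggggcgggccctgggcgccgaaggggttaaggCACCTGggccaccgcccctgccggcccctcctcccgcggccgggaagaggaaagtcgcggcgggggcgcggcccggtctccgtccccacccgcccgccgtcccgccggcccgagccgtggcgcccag
FUT4: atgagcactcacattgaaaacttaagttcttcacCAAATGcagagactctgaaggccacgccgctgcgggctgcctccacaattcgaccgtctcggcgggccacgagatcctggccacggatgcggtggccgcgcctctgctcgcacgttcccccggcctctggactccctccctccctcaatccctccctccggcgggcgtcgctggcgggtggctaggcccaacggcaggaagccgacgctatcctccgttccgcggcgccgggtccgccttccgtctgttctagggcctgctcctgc

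B3GNT5 and B4GALT5 had 3 E boxes each in this window, GCNT1 had 2, and B3GNT7 and FUT4 had 1. Of the 40 members with such a promoter, 23 (57.5%) held CANNTG, against 59.8% of 10505 promoters of listed genes. CAGCTG was in 12.5% of the members' promoters and 17.0% of all, and CATCTG in 7.5% and 9.34%, both being forms of CANNTG. Among members called in Tet-PTF1a, CANNTG was in 11 of 17 promoters of those that rose and in 7 of 12 of those that fell. The paired motif, TGGGAAA with its midpoint 10 to 12 or 20 to 22 bases from that of an E box, was in no member, neither in this window nor in the 1000 bases upstream and 100 downstream of the hg19 start, and was in 0.171% and 1.03% of all promoters. The 95% Wilson interval of the 57.5% was 42.2% to 71.5% and held the share of all promoters. A match is a description of letters, not of binding.

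Among the GalNAc-transferases, which start O-glycans, 10 of the 12 tested in Tet-PTF1a were called, 3 higher and 7 lower, against 48.2% of all genes. GALNT18 was at 23.3, 24.5, 22.1 and 25.4 CPM in the Tet-PTF1a Control libraries and at 10.9, 9.57, 9.79 and 8.86 in the Dox libraries. The groups lay far apart, and the log2 fold change was -1.30 ± 0.062 (SE, FDR = 1.07e-23). GALNT6 went the other way, from 5.52, 4.76, 5.86 and 5.83 to 9.94, 9.71, 9.99 and 9.38 CPM, again without overlap (0.80 ± 0.08 SE, FDR = 4.22e-12), and 2.21% of its exon length is shared with SLC4A8 on the opposite strand. GALNT7, which acts on peptides that already carry N-acetylgalactosamine, was the most abundant member of the class in this line and rose from 355, 361, 348 and 344 to 451, 442, 452 and 449 CPM (0.35 ± 0.021 SE, FDR = 1.48e-19). GALNT1, a broadly expressed initiating enzyme, fell from 243, 255, 244 and 244 to 193, 190.0, 189 and 191 CPM (-0.37 ± 0.023 SE, FDR = 3.77e-19), every Dox library lying below every Control library. GALNT14 also rose (0.35), and GALNT10 (-0.29), GALNT16 (-0.28), GALNT12 (-0.25), GALNT2 (-0.11) and GALNT11 (-0.094) fell. GALNT4 and GALNT5 did not pass the test.

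In Tet-MIST1, 1 of 10 GalNAc-transferases was called, against 20.6% of all genes. GALNT2 was lower (-0.18 ± 0.044 SE, FDR = 0.0149), and without Control replicate 1 it was no longer called. GALNT18 was at 8.14, 7.22, 8.24 and 7.10 CPM in Control and 7.80, 7.31, 6.26 and 7.78 in Dox. GALNT6 was at 24.9, 24.1, 23.4 and 23.3 CPM in Control and 19.4, 21.8, 21.7 and 23.97 in Dox. In both the groups overlapped, and the log2 fold changes of -0.076 and -0.14 did not pass the test, nor did that of GALNT7 (-0.04, 197 to 207 CPM in Control and 184 to 205 in Dox). GALNT1 was at 298 to 309.9 CPM in Control and 272 to 291 in Dox, where all Dox libraries lay below all Control libraries without a call (-0.10 ± 0.04 SE, FDR = 0.0982). In Tet-One the groups overlapped for all 4 of these genes, with GALNT18 at 42.0 to 48.4 CPM in Control and 41.9 to 45.9 in Dox, GALNT6 at 4.93 to 6.27 and 4.28 to 6.30, GALNT7 at 267 to 295 and 236 to 293, and GALNT1 at 254 to 265 and 230.1 to 258.

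**Figure D2:**
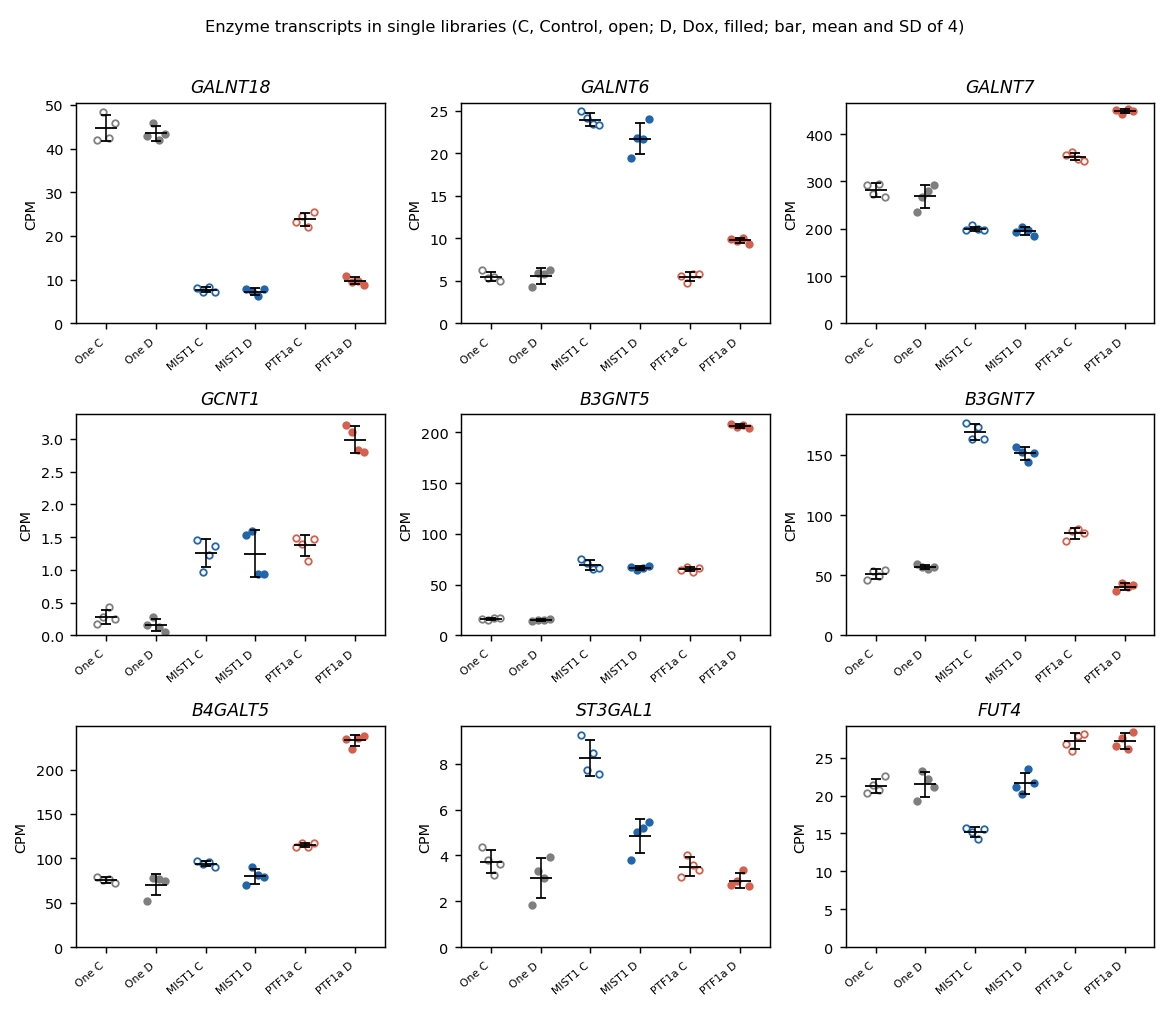
CPM (y axis) of 9 enzyme transcripts in each of the 24 libraries, by line and treatment (x axis, C for Control and D for Dox), with the mean and SD of the 4 libraries of a group as bars. B3GNT5, B4GALT5, GCNT1, GALNT6 and GALNT7 are higher and GALNT18 and B3GNT7 lower with Dox in Tet-PTF1a, and ST3GAL1 is lower and FUT4 higher with Dox in Tet-MIST1.

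GALNT16 was nearly absent from Tet-MIST1 cells with or without Dox. It was at 13.7, 14.7, 13.7 and 13.7 CPM in Tet-One Control, 6.22, 6.83, 6.65 and 6.53 in Tet-PTF1a Control and 0.458, 0.281, 0.213 and 0.308 in Tet-MIST1 Control, where 9 to 18 reads were counted per library and the gene fell under the limit for testing. CPM values here were scaled within each line, so that levels of different lines stand side by side and were not tested. With Dox it was at 4.94, 5.51, 4.53 and 6 CPM in Tet-PTF1a, 10.1, 16.04, 15.8 and 15.2 in Tet-One and 0.483, 0.371, 0.321 and 0.573 in Tet-MIST1, and the Tet-PTF1a call (-0.28 ± 0.091 SE, FDR = 0.00950) was lost without Dox replicate 3, with an FDR of 0.0561.

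Core and branch enzymes moved in both directions in Tet-PTF1a, with 2 of 6 higher and 2 lower, against 48.2% of all genes called. GCNT1 was at 1.49, 1.40, 1.14 and 1.47 CPM in Control and 3.22, 3.11, 2.83 and 2.80 in Dox (1.04 ± 0.14 SE, FDR = 2.38e-08), at a low level of 23 to 63 reads per Control library and 55 to 92 per Dox library. B3GNT6 went from 1.13, 0.728, 1.24 and 0.761 CPM to 0.230, 0.0942, 0.361 and 0.396 (-1.53 ± 0.27 SE, FDR = 5.68e-06), on 13 to 48 reads per Control library and 2 to 13 per Dox library. Neither gene's groups overlapped, but B3GNT6 passed the filter through its Control libraries alone and so could be called lower alone. GCNT2, the I-branching enzyme, fell by a smaller amount (-0.25 ± 0.032 SE, FDR = 5.18e-09), and C1GALT1, which makes core 1, rose slightly (0.079 ± 0.03 SE, FDR = 0.0250), with overlapping groups. C1GALT1C1, the chaperone of C1GALT1, was at 41.7, 39.4, 41.0 and 39.8 CPM in Control and 37.8, 37.6, 37.0 and 39.5 in Dox and was not called (-0.09 ± 0.039 SE, FDR = 0.0531).

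C1GALT1C1 was instead the called member of this class in Tet-MIST1. It was at 50.9, 50.9, 52.6 and 52.5 CPM in Control and 71.2, 61.8, 63.2 and 59.1 in Dox, all Dox libraries exceeding all Control libraries (0.30 ± 0.058 SE, FDR = 0.00423). C1GALT1 itself was not called there (-0.015, 95% interval -0.12 to 0.086). GCNT1 was at 1.45, 0.960, 1.23 and 1.37 CPM in Tet-MIST1 Control and 1.52, 1.59, 0.937 and 0.935 in Dox, and B3GNT6 at 1.01 to 1.53 and 0.788 to 1.22. The groups overlapped in both and neither was called. Tet-One held less GCNT1, at 0.174, 0.282, 0.427 and 0.247 CPM in Control and 0.155, 0.286, 0.131 and 0.0550 in Dox, too little to be tested. C1GALT1C1 was at 26.1, 24.9, 26.9 and 25.6 CPM in Tet-One Control and 37.9, 22.7, 25.0 and 25.3 in Tet-One Dox, where the library that stood apart was the highest. B3GNT6 spread over 0.971 to 2.32 CPM in Tet-One Control and 0.542 to 1.78 in Tet-One Dox.

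The largest change of any member was in chain extension. B3GNT5 transfers N-acetylglucosamine to lactosylceramide and so starts the lacto- and neolacto-series glycolipids. It was at 64.2, 67.7, 62.5 and 66.7 CPM in the Tet-PTF1a Control libraries and at 208, 206, 208 and 205 in the Dox libraries. All Dox libraries lay far above all Control libraries, a 3.16-fold difference (log2 fold change 1.66 ± 0.028 SE, FDR = 4.84e-43). In Tet-MIST1 B3GNT5 was at 74.8, 71.1, 64.9 and 65.9 CPM in Control and 67.2, 63.9, 66.3 and 68.4 in Dox, with no call and a 95% interval of -0.18 to 0.059. In Tet-One it was at 16.1, 15.1, 16.8 and 16.6 CPM in Control and 14.5, 14.8, 15.5 and 16 in Dox, the lowest of the 3 lines.

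B3GNT7, which lengthens N-acetyllactosamine and keratan sulfate chains, moved the opposite way in Tet-PTF1a. Its Control libraries held 78.5, 87.0, 88.4 and 85.0 CPM and its Dox libraries 36.6, 43.5, 40.1 and 41.7 (-1.05 ± 0.043 SE, FDR = 1.53e-17). In Tet-MIST1 it was far more abundant, at 177, 163, 173 and 164 CPM in Control, and lower with Dox at 157, 152, 144 and 152 (-0.16 ± 0.046 SE, FDR = 0.0290), a call lost without Control replicate 1 or 3 or Dox replicate 3 or 4, with an FDR of at most 0.101. In Tet-One the values were 45.7, 53.8, 49.6 and 54.7 CPM in Control and 59.5, 56.7, 54.8 and 56.5 in Dox, every Dox library above every Control library, without a call (0.16 ± 0.077 SE, FDR = 0.897). B3GNT2, a main enzyme of poly-N-acetyllactosamine synthesis, rose in Tet-PTF1a (0.21), and B3GNT9 was lower in both lines (-0.15 in Tet-PTF1a and -0.22 in Tet-MIST1), with 16.2% of its exon length shared with C16orf70 on the opposite strand. The B3GNT9 call was lost in Tet-PTF1a without Control replicate 3 or 4 or Dox replicate 2 or 3 (FDR at most 0.125) and in Tet-MIST1 without any of the libraries but Dox replicates 1 and 2 (FDR at most 0.118). B3GNT4 was called in none of the lines. It was at 0.916, 0.656, 0.732 and 0.531 CPM in Tet-MIST1 Control and 1.17, 1.03, 0.883 and 0.935 in Dox, at 1.51, 1.90, 1.94 and 1.52 in Tet-PTF1a Control and 1.38, 1.37, 1.75 and 1.34 in Dox, and at 1.33 to 1.59 and 1.40 to 1.60 in Tet-One.

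Galactosyltransferases included 4 that rose and 0 that fell among 10 tested in Tet-PTF1a, against 48.2% of all genes called (23.8% higher, 24.4% lower). B4GALT5, which makes lactosylceramide, was at 113, 118, 113 and 117 CPM in Control and 235, 223, 235 and 238 in Dox (1.02 ± 0.026 SE, FDR = 2.32e-35), a 2.02-fold difference with all Dox libraries far above all Control libraries. B4GALT3 (0.24), B4GALT7 (0.21), an enzyme of the proteoglycan linker, and B4GALT4 (0.19) rose by less. B4GALT6, the other lactosylceramide synthase, did not pass the test there (-0.013, 95% interval -0.078 to 0.051). B4GALT2, the most abundant of the class per exon length in all 3 Control groups, was at 90.5, 88.2, 93.0 and 91.4 CPM in Tet-PTF1a Control and 85.0, 84.0, 86.7 and 91.0 in Dox (-0.063 ± 0.03 SE, FDR = 0.0828).

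In Tet-MIST1, by contrast, B4GALT5 was lower with Dox. Its values were 97.0, 93.2, 96.1 and 90.2 CPM in Control and 69.5, 90.2, 81.4 and 78.4 in Dox, the groups meeting at their ends (-0.24 ± 0.069 SE, FDR = 0.0322). The call was lost without Control replicate 1, 2 or 3 or Dox replicate 3 or 4, with an FDR of at most 0.0948. B4GALT6 was also lower (-0.17 ± 0.05 SE, FDR = 0.0351), a call lost without Control replicate 1, 2 or 3 or Dox replicate 2, 3 or 4, with an FDR of at most 0.166. Tet-One gave 79.5, 75.4, 76.7 and 71.9 CPM of B4GALT5 in Control and 52.3, 77.3, 76.5 and 74.8 in Dox, with replicate 1 the lowest. B4GALT2 was at 114 to 119 CPM in Tet-MIST1 Control and 112 to 129 in Dox and at 106 to 123 and 112 to 130.2 in Tet-One, with overlapping groups in both lines.

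Scaled to exon length (CPM per kb), the make-up of these classes shifted with PTF1a. B3GNT5 was 27.1% ± 0.939 (SD) of the summed level of the chain extension enzymes in Tet-PTF1a Control and 61.5% ± 0.569 in Dox, while B3GNT7 went from 40.02% ± 1.25 to 13.7% ± 0.967. The sum of the class was 58.4 ± 1.58 CPM per kb in Control and 81.5 ± 0.240 in Dox. Among the galactosyltransferases, B4GALT5 went from 15.97% ± 0.297 to 27.2% ± 0.312 of the class and B4GALT2 from 24.5% ± 0.604 to 19.8% ± 0.401, with B3GALT4 left out because its listed length counts 4 alternate haplotype copies. Among the GalNAc-transferases, GALNT7 went from 30.8% ± 0.445 to 40.3% ± 0.156 and GALNT1 from 24.2% ± 0.222 to 19.2% ± 0.146, while the sum of the class was 265 ± 3.63 CPM per kb in Control and 259 ± 1.96 in Dox. In Tet-MIST1, B3GNT7 was 59.4% ± 1.18 of its class in Control and 57.7% ± 0.638 in Dox, and B3GNT5 21.3% ± 1.02 and 22.3% ± 0.842. These shares are descriptions and were not tested.

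**Figure D3:**
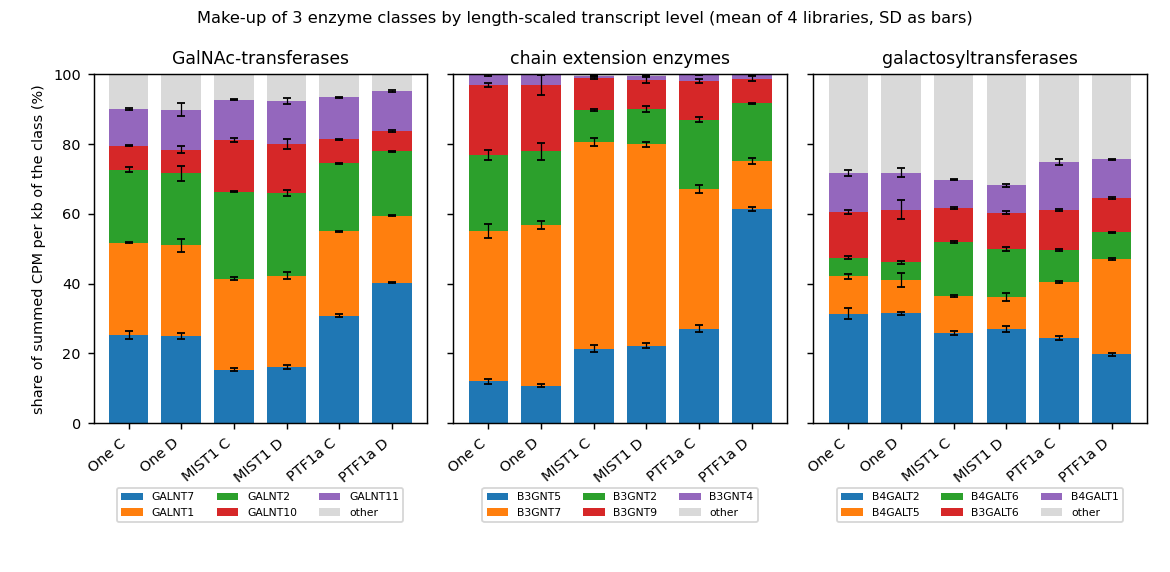
Share of the summed CPM per kb (y axis, percent, mean of 4 libraries with SD) taken by the 5 leading genes of each of 3 enzyme classes in each group (x axis, C for Control and D for Dox). In Tet-PTF1a, B3GNT5 grows from 27.1% to 61.5% of the chain extension enzymes, B4GALT5 from 16.0% to 27.2% of the galactosyltransferases and GALNT7 from 30.8% to 40.3% of the GalNAc-transferases.

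Of the 11 sialyltransferases tested in Tet-PTF1a, 4 rose and 3 fell, against 48.2% of all genes called. ST3GAL5, which converts lactosylceramide to the ganglioside GM3, was at 1.93, 2.41, 1.74 and 1.81 CPM in Control and 2.41, 3.82, 3.24 and 3.47 in Dox (0.74 ± 0.14 SE, FDR = 1.30e-05), where Dox replicate 1 and Control replicate 2 both came to 2.41 and the other 3 Dox libraries lay above every Control library. ST8SIA4, a polysialyltransferase, rose from 2.64, 2.35, 2.78 and 2.76 to 3.79, 3.39, 3.76 and 4.05 CPM (0.50 ± 0.12 SE, FDR = 3.68e-04). ST8SIA6, which adds sialic acid to sialylated O-glycans, fell from 2.405, 2.02, 2.63 and 2.13 to 1.72, 1.32, 1.54 and 1.25 CPM (-0.66 ± 0.15 SE, FDR = 3.67e-04). For ST8SIA4 and ST8SIA6 the groups lay apart. The more abundant ST6GALNAC4 rose from 15.5, 15.6, 16.6 and 16.8 to 21.1, 20.9, 18.7 and 20.01 CPM (0.32 ± 0.055 SE, FDR = 3.18e-06) and ST6GALNAC6 from 55.7, 54.3, 52.6 and 57.0 to 63.5, 68.0, 66.7 and 71.5 CPM (0.30 ± 0.035 SE, FDR = 6.64e-10). ST6GAL1, which caps N-glycans, fell (-0.44), and ST3GAL4, the highest of the class per exon length in Tet-PTF1a Control, was at 53.3, 55.4, 55.7 and 55.9 CPM in Control and 51.8, 50.5, 55.9 and 56.8 in Dox and was not called (-0.027, 95% interval -0.10 to 0.047).

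In Tet-MIST1 the leading change of the whole set was ST3GAL1. Its Control libraries held 9.26, 7.73, 8.48 and 7.55 CPM and its Dox libraries 3.79, 5.01, 5.19 and 5.46. No Dox library reached the lowest Control library, and the difference was 1.70-fold (log2 fold change -0.76 ± 0.11 SE, FDR = 7.34e-04). In Tet-PTF1a ST3GAL1 was at 3.04, 4.03, 3.57 and 3.39 CPM in Control and 2.70, 2.87, 3.35 and 2.65 in Dox (-0.25 ± 0.12 SE, FDR = 0.0933), with overlapping groups. In Tet-One it was at 4.36, 3.79, 3.15 and 3.63 CPM in Control and 1.86, 3.33, 3.01 and 3.93 in Dox (-0.30 ± 0.21 SE, FDR = 0.897), again with overlap. ST3GAL2, which also sialylates core 1, went from 51.9, 45.7, 49.5 and 50.1 to 53.0, 58.0, 53.8 and 57.6 CPM in Tet-MIST1 (0.17 ± 0.054 SE, FDR = 0.0401) and from 40.01, 39.5, 44.2 and 44.2 to 38.1, 39.4, 36.5 and 40.5 in Tet-PTF1a (-0.11 ± 0.042 SE, FDR = 0.0226). The ST3GAL2 call was lost in Tet-MIST1 without any library but Dox replicate 1 (FDR at most 0.117) and in Tet-PTF1a without Control replicate 3 or 4 or Dox replicate 1 or 3 (FDR at most 0.144). In Tet-One ST3GAL2 was at 38.0, 41.5, 38.4 and 42.6 CPM in Control and 35.2, 43.1, 41.2 and 43.9 in Dox.

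The other sialyltransferases were not called in Tet-MIST1. ST6GALNAC4, highest of the class per exon length in its Control libraries, was at 53.5, 44.8, 50.6 and 48.9 CPM in Control and 48.4, 43.1, 39.8 and 51.0 in Dox, ST6GALNAC6 at 69.0 to 74.4 and 72.2 to 85.9, and ST3GAL4 at 66.6 to 69.6 and 64.9 to 74.1. The groups overlapped for each of these. ST3GAL5 was at 8.45, 7.82, 7.94 and 7.44 CPM in Tet-MIST1 Control and 8.84, 8.98, 8.16 and 8.35 in Dox. In Tet-One it was at 1.35 to 1.62 CPM in Control and 1.30 to 1.65 in Dox, and the levels of the lines were not tested against each other. ST8SIA4 ranged from 0.726 to 0.921 CPM in Tet-MIST1 Control and 0.482 to 0.839 in Dox, and from 0.282 to 0.735 and 0.364 to 0.392 in Tet-One. ST8SIA6 ranged from 0.449 to 0.820 and 0.562 to 0.686 CPM in Tet-MIST1 and from 3.85 to 4.20 and 2.68 to 4.21 in Tet-One. In Tet-One ST6GALNAC6, the highest of the class per exon length there, was at 64.0 to 71.3 CPM in Control and 63.5 to 72.7 in Dox, with ST6GALNAC4 at 22.2 to 26.2 and 24.2 to 29.2 and ST3GAL4 at 46.5 to 54.6 and 50.4 to 65.8.

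B4GALT5 makes lactosylceramide and B3GNT5 and ST3GAL5 act on it, and all 3 transcripts rose in Tet-PTF1a. They were grouped after their values were seen, and B4GALT6, which also makes lactosylceramide, was not called. In Tet-MIST1 the 4 genes had log2 fold changes of -0.058 (B3GNT5), -0.24 (B4GALT5), 0.12 (ST3GAL5) and -0.17 (B4GALT6), and in Tet-One of -0.086, -0.11, -0.028 and -0.00063.

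Fucosyltransferases changed little in Tet-PTF1a, with 3 of 5 higher by at most 0.44, against 48.2% of all genes called. FUT9, an enzyme of Lewis x synthesis, rose from 13.2, 10.98, 11.2 and 12.8 to 18.4, 15.8, 17.7 and 15.8 CPM (0.44 ± 0.065 SE, FDR = 1.38e-07). The Dox libraries all lay above the Control libraries. FUT9 was at 1.52, 1.38, 1.87 and 1.28 CPM in Tet-One Control and 0.800, 1.41, 1.36 and 1.62 in Tet-One Dox, and in Tet-MIST1 no library had more than 1 read. FUT11, the most abundant of the class per exon length in every Control group, was at 52.0, 56.0, 58.2 and 56.2 CPM in Tet-PTF1a Control and 59.6, 59.4, 60.9 and 58.6 in Dox (0.11 ± 0.035 SE, FDR = 0.00992), a call lost without Control replicate 1 (FDR = 0.107). It was at 25.4 to 30.9 CPM in Tet-MIST1 Control and 22.8 to 29.4 in Dox, and in Tet-One at 41.9, 51.1, 43.9 and 45.5 in Control and 23.3, 40.7, 41.8 and 49.4 in Dox, where replicate 1 was the lowest, without a call in either line. FUT8, which adds the core fucose of N-glycans, rose slightly in Tet-PTF1a (0.12 ± 0.037 SE, FDR = 0.00442), but 24.8% of its exon length is shared with FUT8-AS1 on the opposite strand and the use of strand in counting was not given in the sources used here.

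FUT4 alone of the 4 fucosyltransferases tested was called in Tet-MIST1, against 20.6% of all genes. It was at 15.7, 15.2, 14.3 and 15.6 CPM in Control and 21.1, 20.2, 23.5 and 21.7 in Dox, with a wide gap between the groups (0.51 ± 0.06 SE, FDR = 1.84e-04). In Tet-PTF1a it was at 26.8, 25.9, 27.9 and 28.2 CPM in Control and 26.6, 27.7, 26.2 and 28.4 in Dox, with a 95% interval of -0.088 to 0.10 for its change. In Tet-One it was at 20.4, 21.4, 20.8 and 22.6 CPM in Control and 19.3, 23.3, 22.2 and 21.2 in Dox. The Tet-MIST1 Control libraries were the lowest of the 6 groups, and the Dox libraries of that line reached values like those of Tet-One.

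All 4 membrane mucins were called in Tet-PTF1a, 3 of them lower, against 48.2% of all genes called. MUC1, the most abundant mucin per exon length in every group, was at 18.1, 18.9, 20.9 and 19.6 CPM in Control and 16.02, 15.8, 17.0 and 16.1 in Dox (-0.25 ± 0.056 SE, FDR = 2.38e-04). MUC3A fell from 11.01, 9.58, 10.5 and 11.02 to 8.61, 7.87, 7.21 and 7.005 CPM (-0.49 ± 0.076 SE, FDR = 4.55e-07) and MUC12 from 1.30, 1.74, 1.79 and 1.47 to 0.919, 0.942, 0.824 and 0.944 (-0.68 ± 0.19 SE, FDR = 0.00186), both with no overlap. MUC16, whose shed ectodomain is a tumour antigen, rose from 12.7, 14.9, 13.3 and 14.1 to 24.5, 22.9, 24.7 and 19.4 CPM (0.72 ± 0.069 SE, FDR = 4.65e-10), every Dox library above every Control library. MUC3A and MUC12 are built of repeats and MUC3A has near-identical copies, so that their counts are uncertain. The secreted gastric mucin MUC6 was at 0.401, 0.728, 0.844 and 0.787 CPM in Control and 1.09, 0.848, 0.927 and 0.548 in Dox and was not called (0.28 ± 0.24 SE, FDR = 0.362), and MUC5AC had no row in this table.

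In Tet-MIST1 MUC3A rose instead. It was at 8.58, 9.30, 8.65 and 9.40 CPM in Control and 11.7, 11.5, 10.9 and 13.2 in Dox, with no overlap (0.39 ± 0.071 SE, FDR = 0.00309). MUC1 was at 29.2, 27.6, 27.2 and 28.5 CPM in Control and 24.4, 27.5, 27.0 and 27.5 in Dox (-0.081 ± 0.054 SE, FDR = 0.295). MUC12 was at 1.37, 2.04, 1.61 and 1.40 CPM in Control and 1.78, 1.78, 1.02 and 1.30 in Dox (-0.13 ± 0.19 SE, FDR = 0.652), with overlapping groups. MUC16 was nearly absent, at 0.204, 0.0937, 0.0945 and 0.0280 CPM in Control and 0.102, 0.106, 0.0268 and 0.0905 in Dox, or 1 to 8 reads per library, and was not tested. MUC5AC, at 0.168 to 0.307 CPM in Control and 0.229 to 0.332 in Dox, was also under the limit for testing.

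Tet-One mucins did not pass the test. MUC1 was at 25.5, 27.7, 25.9 and 28.3 CPM in Control and 27.5, 27.8, 27.8 and 29.97 in Dox, and MUC3A at 8.77 to 9.76 and 8.49 to 9.33, with overlapping groups. MUC12 was at 2.42, 2.74, 2.51 and 2.27 CPM in Control and 4.51, 2.71, 2.38 and 2.28 in Dox, and MUC16 at 4.73, 4.94, 5.19 and 4.05 in Control and 1.29, 4.56, 5.25 and 5.86 in Dox. Dox replicate 1, the library that stood apart, was the highest of its group for MUC12 and the lowest for MUC16. MUC5AC was at 0.697, 0.692, 0.545 and 1.23 CPM in Control and 0.748, 1.38, 1.202 and 1.21 in Dox (0.49 ± 0.27 SE, FDR = 0.897). Among mucins MUC1 made up 88.1% ± 0.626 of the summed CPM per kb in Tet-One Control, 90.1% ± 0.548 in Tet-MIST1 Control and 82.1% ± 0.916 in Tet-PTF1a Control, while MUC16 made up 2.45% ± 0.213 in Tet-PTF1a Control and 4.81% ± 0.411 in Tet-PTF1a Dox.

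**Figure D4:**
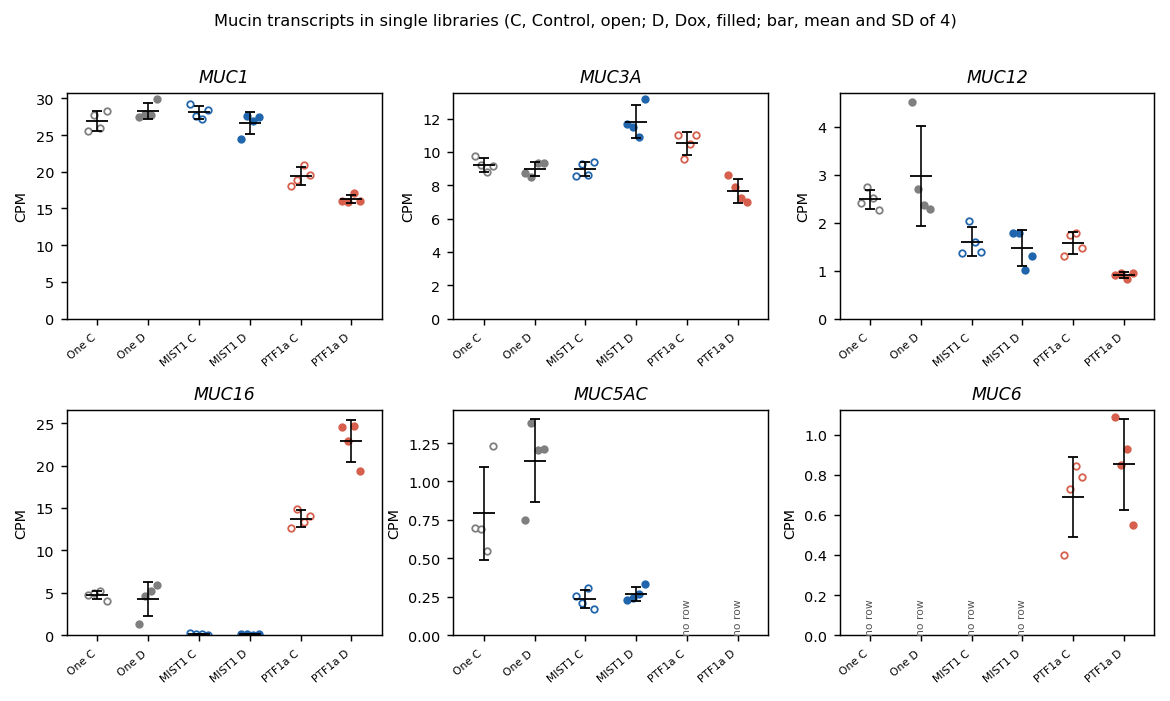
CPM (y axis) of the 6 listed mucins in each library, by line and treatment (x axis, C for Control and D for Dox), with the mean and SD of the 4 libraries of a group as bars, and "no row" where a table does not list the gene. MUC1, MUC3A and MUC12 are lower and MUC16 higher with Dox in Tet-PTF1a, MUC3A is higher with Dox in Tet-MIST1, and MUC16 is near 0 in all 8 Tet-MIST1 libraries.

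Whether 2 lines responded differently to Dox was tested by the line-by-Dox interaction term. Between Tet-PTF1a and Tet-MIST1, 22 of 51 members differed, 11 with a higher log2 change in Tet-PTF1a and 11 with a lower, against 36.4% of all genes (17.8% and 18.6%). The largest differences in log2 change, Tet-PTF1a minus Tet-MIST1, were 1.73 ± 0.061 (SE, FDR = 7.48e-15) for B3GNT5, 1.26 ± 0.074 (SE, FDR = 2.40e-11) for B4GALT5, -1.21 ± 0.11 (SE, FDR = 3.22e-08) for GALNT18, -1.21 ± 0.35 (SE, FDR = 0.00986) for B3GNT6 and 1.04 ± 0.23 (SE, FDR = 0.00148) for GCNT1. MUC3A was called in opposite directions in the 2 lines and differed by -0.86 ± 0.11 (SE, FDR = 1.51e-06). B4GALT5 and ST3GAL2 were also called in opposite directions, and ST3GAL2 differed by -0.28 ± 0.072 (SE, FDR = 0.00455). The responses of FUT4 (-0.49 ± 0.074 SE, FDR = 2.08e-05) and C1GALT1C1 (-0.38 ± 0.071 SE, FDR = 2.43e-04), which were called in Tet-MIST1 alone, differed as well, as did ST3GAL1 (0.53 ± 0.17 SE, FDR = 0.0203), although ST3GAL1 lost this call without Tet-PTF1a Control replicate 1 or Tet-PTF1a Dox replicate 3 (FDR at most 0.0721). With library size in place of TMM scaling, 26 members differed, 16 of them with a higher log2 change in Tet-PTF1a, against 37.5% of all genes.

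Smaller differences in the same test included GALNT6 (0.96), B3GNT7 (-0.89), ST8SIA4 (0.71), ST3GAL5 (0.64), B3GNT4 (-0.65) and ST6GALNAC4 (0.45). GALNT16 (-0.68) was also called, but it passed the filter of this test through the Tet-PTF1a libraries alone, with 9 to 18 reads per Control and 12 to 19 per Dox library in Tet-MIST1, so that nothing is drawn from its difference. The GALNT16 call was lost without any of 10 libraries, every one but Tet-PTF1a Control 1, Dox 2 and Dox 4 and Tet-MIST1 Control 1, Dox 2 and Dox 3 (FDR at most 0.123), and the B3GNT4 call without Tet-PTF1a Dox 4 or Tet-MIST1 Control 2, Control 4 or Dox 1 (FDR at most 0.0642). Of the 48 members tested in both lines, B3GNT7, B3GNT9 and GALNT2 were called lower in both, none was called higher in both, and 11 were called in neither. The matching shares of all genes were not computed. For ST6GAL1 (-0.44 in Tet-PTF1a and -0.24 in Tet-MIST1) and for GALNT10 (-0.29 and -0.20), called in Tet-PTF1a alone, a difference between the lines was not called.

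**Figure D5:**
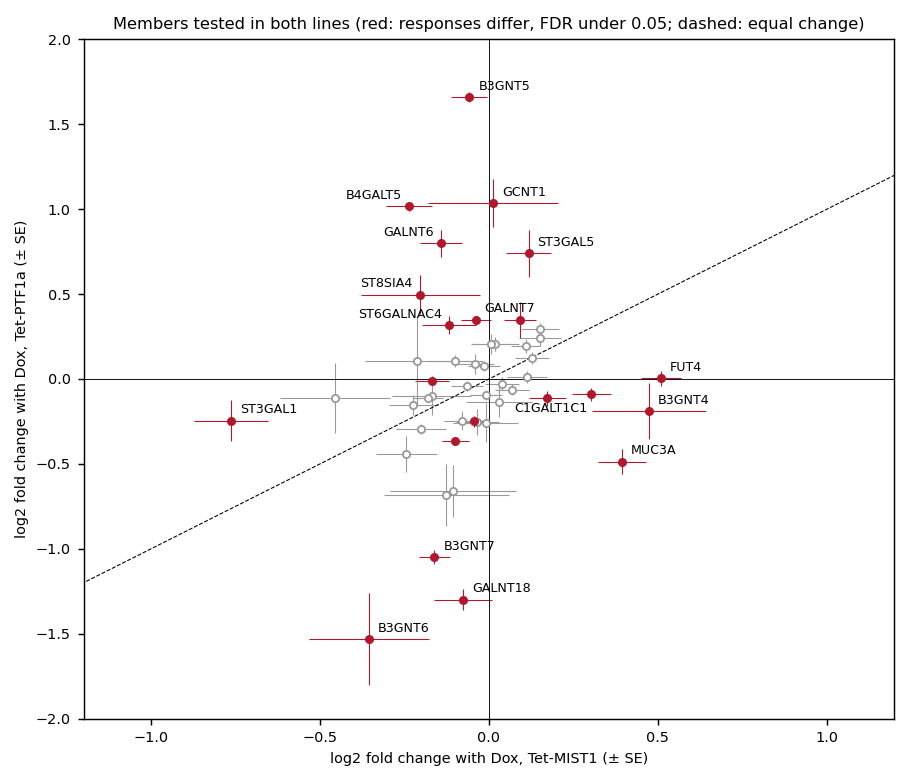
Log2 fold change with Dox in Tet-MIST1 (x axis) and Tet-PTF1a (y axis), each ± SE, for the 48 members tested in both lines, with filled red points where the responses differed at an FDR under 0.05 and a dashed line where they would be equal. B3GNT5, GCNT1 and GALNT6 lie near 0 on the x axis and high on the y axis. B4GALT5 lies left of 0 and high, MUC3A lies to the right and below 0, and ST3GAL1 lies far to the left.

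Against Tet-One, 15 of 51 members responded differently in Tet-PTF1a (9 with a higher log2 change, 6 with a lower), against 12.8% of all genes (5.52% and 7.32%). B3GNT5 (1.75 ± 0.068 SE, FDR = 1.16e-10), B4GALT5 (1.13 ± 0.13 SE, FDR = 2.23e-05) and GALNT6 (0.80 ± 0.15 SE, FDR = 0.00223) were among the 9, and GALNT18 (-1.25 ± 0.10 SE, FDR = 2.96e-07), B3GNT7 (-1.22 ± 0.094 SE, FDR = 2.47e-07) and the mucins MUC1, MUC3A and MUC12 (-0.33, -0.42 and -0.96) among the 6. The 9 also held GCNT1 (1.71 ± 0.36 SE, FDR = 0.00396) and ST8SIA4 (1.03 ± 0.25 SE, FDR = 0.0127), which were under the limit for testing in Tet-One and entered this test through the Tet-PTF1a libraries alone. GCNT1 had 7 to 18 reads per Control and 2 to 11 per Dox library in Tet-One, and its difference exceeds its Tet-PTF1a change of 1.04 through the ratio of those few reads. ST8SIA4 had 11 to 31 and 14 to 15 reads there, against a Tet-PTF1a change of 0.50, and nothing is drawn from either difference. The MUC1 call was lost with library size scaling (FDR = 0.0624). The MUC12 call was lost without any of 12 libraries, all but Tet-PTF1a Control 1 and Tet-One Dox 1, 3 and 4 (FDR at most 0.0875). The FUT9 call (0.69 ± 0.22 SE, FDR = 0.0456) was lost without any of 12, all but Tet-PTF1a Control 1, Tet-One Control 4 and Tet-One Dox 1 and 4 (FDR at most 0.117). Without Tet-One Dox replicate 1, 31 members differed, against 30.7% of all genes. Between Tet-MIST1 and Tet-One, 2 of 54 members differed, both with a higher log2 change in Tet-MIST1, against 1.66% of all genes (1.48% higher, 0.187% lower). They were FUT4 (0.49 ± 0.094 SE, FDR = 0.0117) and MUC3A (0.43 ± 0.10 SE, FDR = 0.0321). Without Tet-One Dox replicate 1 there were 7, against 13.9% of all genes. MUC3A lost this call without any of 9 libraries, namely Tet-MIST1 Control 1, 3 or 4, Tet-MIST1 Dox 1 or 4, Tet-One Control 1, 2 or 4 and Tet-One Dox 2 (FDR at most 0.142). The fall of ST3GAL1 and the rise of C1GALT1C1 in Tet-MIST1 were not shown to differ from Tet-One (-0.47 ± 0.24 SE, FDR = 0.517, and 0.20 ± 0.17 SE, FDR = 0.799). Likewise, the falls of B3GNT6 and ST8SIA6 and the rise of MUC16 in Tet-PTF1a were not shown to differ from Tet-One. The differences for B3GNT6 and MUC16 were large, at -1.56 and 0.89. Tet-One Dox replicate 1 was the lowest of its group for B3GNT6, MUC16 and ST3GAL1 and the highest for C1GALT1C1. The differences of these genes without that library are not given here. The 2 tests against Tet-One share its 8 libraries.

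The wider glycosylation pathway was read from 5 lists of genes that are no members. Of 22 genes of sugar nucleotide synthesis, which supply the donors, 7 rose and 6 fell in Tet-PTF1a, where 48.2% of all genes were called, and 7 rose and 2 fell in Tet-MIST1, where 20.6% were. GFPT2, with GFPT1 an entry enzyme of the hexosamine pathway, was at 4.46, 4.87, 4.07 and 4.57 CPM in Tet-PTF1a Control and 13.9, 14.0, 14.2 and 13.6 in Dox (1.61 ± 0.076 SE, FDR = 4.48e-24), and lower with Dox in Tet-MIST1 (-0.37 ± 0.093 SE, FDR = 0.0179). For GFPT1 the groups overlapped in Tet-PTF1a, with a ratio of Dox to Control CPM of 1.03. GMDS, an enzyme of GDP-fucose synthesis, rose in Tet-PTF1a (0.58 ± 0.07 SE, FDR = 9.71e-10). GALK1, which phosphorylates galactose, rose from 28.8, 24.6, 27.0 and 27.7 to 51.1, 41.1, 38.1 and 44.8 CPM in Tet-MIST1 (0.69 ± 0.085 SE, FDR = 2.47e-04), while in Tet-One its highest value, 40.4 CPM, was in the library that stood apart. Its response was not shown to differ from Tet-One (0.34 ± 0.23 SE, FDR = 0.673).

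Of 12 genes of N-glycan processing in the Golgi, 4 rose and 2 fell in Tet-PTF1a, against the same 48.2% of all genes. MGAT4A, an N-glycan branching enzyme, was at 6.77, 6.95, 6.80 and 7.66 CPM in Control and 27.0, 28.0, 31.9 and 30.4 in Dox (2.04 ± 0.062 SE, FDR = 8.59e-32), a change larger than that of any member. MGAT5B fell from 37.7, 38.9, 40.7 and 39.99 to 20.7, 17.3, 18.4 and 17.3 CPM (-1.10 ± 0.049 SE, FDR = 5.78e-25). MGAT3, which adds the bisecting N-acetylglucosamine, rose in Tet-PTF1a from 4.01, 5.26, 4.32 and 4.88 to 6.03, 6.50, 6.80 and 6.55 CPM (0.51 ± 0.095 SE, FDR = 1.33e-05) and fell in Tet-MIST1 from 5.14, 4.80, 5.22 and 5.03 to 3.00, 3.66, 3.35 and 2.59 (-0.67 ± 0.10 SE, FDR = 9.29e-04), and the responses differed by 1.18 ± 0.14 (SE, FDR = 6.55e-07). In Tet-MIST1, 2 of the 10 tested rose and 1 fell, against 20.6% of all genes.

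Of 11 Golgi nucleotide sugar transporters, 4 rose and 0 fell in Tet-PTF1a and 2 rose and 1 fell in Tet-MIST1. Of 11 genes of the COG complex and Golgi retention, which hold glycosyltransferases in place, 3 rose and 0 fell in each of the 2 lines. These counts stand against 48.2% of all genes called in Tet-PTF1a and 20.6% in Tet-MIST1, so that 4 and 3 of 11 in Tet-PTF1a lie below the share of all genes and 3 of 11 in Tet-MIST1 near it. Among 12 sialidases and lysosomal exoglycosidases, which take glycans apart, 2 rose and 6 fell in Tet-PTF1a and 3 rose and 0 fell in Tet-MIST1, against the same shares. The median log2 changes of these 3 lists were 0.0442, 0.0533 and -0.124 in Tet-PTF1a and -0.0537, -0.0146 and 0.0821 in Tet-MIST1, against medians over all genes of 0.00136 and -0.00364. For the lists of sugar nucleotide synthesis and N-glycan processing they were 0.0346 and 0.0601 in Tet-PTF1a and 0.0340 and -0.122 in Tet-MIST1. No gene of the 5 lists was called in Tet-One.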

How the data were processed

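Poly(A) RNA from 24 Panc-1 libraries was sequenced in pairs of reads, aligned by the authors to hg19 with TopHat and counted per gene. HTSeq, DESeq and edgeR are named in the submitters' processing notes, and the annotation and strand setting are not given in the sources used here. The deposited read counts, 1 table per line, were used as they stand. The tables also hold the authors' CPM values, a score here because the columns do not share a common sum, and their own fold changes, p-values and FDRs, and none of these were used. All genes of the Tet-PTF1a table had more than 0.5 CPM in at least 4 of its libraries, and those of the Tet-One and Tet-MIST1 tables, which list the same 13879 genes, in at least 4 of the 16 libraries of both. Genes without a row were not analysed here.

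Counts were tested with edgeR 4.0.16 in R 4.3.3 (TMM scaling, robust quasi-likelihood test, the same filter, prior count 2), Dox against Control within each line and, for pairs of lines, the interaction of line and Dox, over all genes, with Benjamini-Hochberg adjustment and an FDR limit of 0.05. SE is the absolute log2 fold change divided by the square root of the F statistic. CPM in the text were computed from the counts with the library sizes scaled by TMM within a line, and CPM per kb divides them by the listed exon length. Replicates are 4 biological replicates per group, as the study's methods state.

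Members and lists were chosen with earlier results of these data known. Values were given in full for members called with an absolute log2 change of at least 0.5, the highest member of each class per exon length in Control, members called in opposite directions, members with an interaction of at least 0.5, and all mucins, and of the lists for genes called at 0.5 or more. Alternatives were DESeq2 1.42.0, 2 other scalings, 2 other filters, each library left out, the replicate number as a block, and exon length and GC trends removed. On simulated counts, 97.5%, 99.0% and 98.5% of 200 changed genes were recovered in Tet-One, Tet-MIST1 and Tet-PTF1a among 13428, 13623 and 14053 genes. False calls numbered 7, 14 and 12. Every changed gene was given a 2-fold change and all genes the same spread, with no library standing apart. Recovery of smaller changes, as most of those reported here are, was not tested. Totals were 17210989 to 43018494 counts per library, so that a low gene such as GCNT1 rests on 23 to 92 reads per library in Tet-PTF1a.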

Additional observations from a re-analysis of the deposited data

Results flagged for a closer look

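In 10 of the 170 groups of 4 libraries examined, 1 library stood far from the other 3, and chance gives about 1 in 20. Tet-One Dox replicate 1 accounted for 3 of them, with B3GNT6 at 0.542 CPM against 1.67 to 1.78 in the other 3 libraries, B4GALT5 at 52.3 against 74.8 to 77.3, and GALNT16 at 10.1 against 15.2 to 16.04. In Tet-One, GALNT16 was also at 14.7 CPM in Control replicate 2 against 13.7 in the others, ST3GAL5 at 1.35 in Control replicate 3 against 1.58 to 1.62, and MUC1 at 30.0 in Dox replicate 4 against 27.5 to 27.8. In Tet-MIST1, GALNT7 was at 207 CPM in Control replicate 2 against 197 to 198, and ST8SIA4 at 0.921 in Control replicate 3 against 0.726 to 0.755. In Tet-PTF1a, B3GNT4 was at 1.75 CPM in Dox replicate 3 against 1.34 to 1.38, and GALNT1 at 255 in Control replicate 2 against 243 to 244.

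Responses to Dox that differed between lines in the interaction test are given as the difference in log2 change ± SE. Tet-MIST1 minus Tet-One was 0.49 ± 0.094 for FUT4 and 0.43 ± 0.10 for MUC3A.

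Tet-PTF1a minus Tet-One was 1.75 ± 0.068 for B3GNT5, 1.71 ± 0.36 for GCNT1, 1.13 ± 0.13 for B4GALT5, 1.03 ± 0.25 for ST8SIA4, 0.80 ± 0.15 for GALNT6, 0.76 ± 0.19 for ST3GAL5, 0.69 ± 0.22 for FUT9, 0.42 ± 0.087 for GALNT7 and 0.30 ± 0.077 for ST6GALNAC6. GCNT1 and ST8SIA4 were under the limit for testing in Tet-One and entered through the Tet-PTF1a libraries alone, so that nothing is drawn from these values. It was -1.25 ± 0.10 for GALNT18, -1.22 ± 0.094 for B3GNT7, -0.96 ± 0.30 for MUC12, -0.42 ± 0.10 for MUC3A, -0.33 ± 0.08 for MUC1 and -0.30 ± 0.062 for GALNT1.

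Tet-PTF1a minus Tet-MIST1 was 1.73 ± 0.061 for B3GNT5, 1.26 ± 0.074 for B4GALT5, 1.04 ± 0.23 for GCNT1, 0.96 ± 0.10 for GALNT6, 0.71 ± 0.20 for ST8SIA4, 0.64 ± 0.15 for ST3GAL5, 0.53 ± 0.17 for ST3GAL1, 0.45 ± 0.10 for ST6GALNAC4, 0.40 ± 0.049 for GALNT7, 0.26 ± 0.10 for GALNT14 and 0.17 ± 0.061 for B4GALT6. It was -1.21 ± 0.11 for GALNT18, -1.21 ± 0.35 for B3GNT6, -0.89 ± 0.07 for B3GNT7, -0.86 ± 0.11 for MUC3A, -0.68 ± 0.26 for GALNT16, -0.65 ± 0.22 for B3GNT4, -0.49 ± 0.074 for FUT4, -0.38 ± 0.071 for C1GALT1C1, -0.28 ± 0.072 for ST3GAL2, -0.26 ± 0.045 for GALNT1 and -0.19 ± 0.056 for GCNT2. GALNT16 was under the limit for testing in Tet-MIST1 and entered through the Tet-PTF1a libraries alone. The B4GALT6 call was lost in 13 of the 16 fits with a library left out, all but those without Tet-PTF1a Control 2, Tet-MIST1 Control 4 or Tet-MIST1 Dox 1 (FDR at most 0.116). The GALNT14 call was lost in 8 of the 16, those without Tet-PTF1a Control 1 or 4, Tet-PTF1a Dox 3 or 4, Tet-MIST1 Control 1, 3 or 4 or Tet-MIST1 Dox 3, and by DESeq2 (FDR at most 0.139). DESeq2 also ended the call of B3GNT4 and library size scaling that of GALNT16. The FDRs of these differences ranged up to 0.0456, in FUT9 against Tet-One.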

How the results depend on the processing

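No called member changed direction under any alternative run. Calls were lost in 42 of 180 refits for Tet-MIST1, 24 of 643 for Tet-PTF1a, 11 of 44 for Tet-MIST1 against Tet-One, 28 of 329 for Tet-PTF1a against Tet-One and 42 of 482 for Tet-PTF1a against Tet-MIST1. With each library left out in turn, the members called numbered 5 to 12 in Tet-MIST1, 32 to 38 in Tet-PTF1a, 1 to 7 in Tet-MIST1 against Tet-One, 13 to 31 in Tet-PTF1a against Tet-One and 18 to 25 in Tet-PTF1a against Tet-MIST1, and the cause of these moves was not tested. Of all genes, the same fits called 10.6% to 27.7%, 43.9% to 46.1%, 1.04% to 13.9%, 10.3% to 30.7% and 32.4% to 40.8% in order. Replicate numbers did not pair the libraries, with correlations of deviations from -0.244 to 0.180. With the replicate number as a block, 4 members were called in Tet-MIST1 (3 higher, 1 lower, so that 75% of calls were higher in place of 40%) and 0 in Tet-MIST1 against Tet-One, where FUT4 came to an FDR of 0.0972 and MUC3A to 0.142. Of all genes, 10.7% and 0.598% were called in these 2 fits. The block also ended the calls of MUC3A (FDR = 0.0537), FUT9 and MUC12 in Tet-PTF1a against Tet-One and of ST3GAL1 and GALNT14 in Tet-PTF1a against Tet-MIST1. Library size scaling in place of TMM made the share of higher calls in Tet-PTF1a against Tet-MIST1 61.5% in place of 50%. With promoters of 1000 bases before to 100 after the start, CANNTG was in 98.2%, CAGCTG in 49.1% and CATCTG in 43.9% of the members, against 97.8%, 41.7% and 41.2% of all.

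Mucins that were not called changed sign. In Tet-One, with each library left out in turn, MUC12 ranged from -0.018 without Dox replicate 1 to 0.36 and MUC16 from -0.35 to 0.14 without Dox replicate 1, and MUC1 in Tet-One was at -0.0012 and MUC3A in Tet-One at 0.062 with exon length and GC trends removed, an alternative chosen after seeing the data. In Tet-MIST1, MUC12 was at 0.0096 without Control replicate 2 and at 0.013 without Dox replicate 3, in a range from -0.23, and at 0.052 with the length trend removed (0.044 with the block) and at 0.076 with length and GC trends removed (0.070 with the block). Low members such as B3GNT6 and GCNT1 rest on 2 to 92 reads per library in Tet-PTF1a.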
